A study of Mus musculus with 18 samples.

Results

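The genes described here are the listed survival and death genes of the BCL2 family together with the death receptor gene Fas, measured as mRNA in mouse B cells. The list holds 10 genes of the 51912 in the table: Bcl2, Bcl2l1, Mcl1, Bcl2a1a, Bcl2a1b, Bcl2a1d, Bcl2l11, Bbc3, Pmaip1 and Fas. Each was found by matching its gene identifier to a symbol in the GENCODE M21 annotation of GRCm38, and the rule uses names and no measured value, though the list was drawn up with earlier results of these data known. RNA was sequenced from C57BL/6 mice that were wild type (WT) or Sh3gl1-/-, which lack endophilin A2, a membrane-bending protein of clathrin-independent endocytosis. The study asked what endophilin A2 does in B cells that are maturing, resting or receiving a signal from T cells. The 6 groups were WT and Sh3gl1-/- transitional B cells and follicular B cells, both untreated, and follicular B cells treated with CD40L for 14 hours according to the labels (overnight in the study's methods and longer in its legends), with 3 libraries per group. CD40L is the T cell protein that engages CD40 on B cells. The deletion was present in every cell of the animal and not in B cells alone, and the age of the mice is not given in the sources used here. No library came from follicular cells cultured without CD40L, so culture and CD40L cannot be told apart.

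Proteins of the BCL2 family decide whether mitochondria release cytochrome c. The survival proteins BCL2, BCL-XL (from Bcl2l1), MCL1 and A1 (from the Bcl2a1 genes) bind and hold back the pore formers BAX and BAK, and the BH3-only proteins BIM (Bcl2l11), PUMA (Bbc3) and NOXA (Pmaip1) occupy the survival proteins and so free the pore formers. FAS acts from the cell surface, where its ligand assembles a complex that activates caspase-8. In B cells BIM is known for removing self-reactive and cytokine-starved cells, MCL1 for keeping mature cells alive, and A1 and BCL-XL as products of genes switched on by NF-κB after activation, while FAS marks activated B cells and makes them sensitive to killing by T cells.

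The 18 libraries held between 12404688 and 18366078 expected counts. Sh3gl1 itself had 377 to 929 counts in the WT libraries and 1 to 22 in the Sh3gl1-/- libraries, so each library matched its genotype label. The B cell markers Cd79a, Cd79b, Ms4a1, Cd22 and Pax5 were detected in every library, Cd79a at 2614 to 5382 CPM, the counts of a gene scaled to library size. The transitional markers Cd93 and Cd24a summed to 375 to 470.0 CPM in WT and 221 to 332 CPM in Sh3gl1-/- transitional libraries, and to 186 to 222 and 134 to 139 CPM in the follicular ones. The lower Sh3gl1-/- sums came from Cd24a, at 309.6 to 398 and 163 to 246 CPM in transitional libraries. In follicular libraries Cd24a was at 173 to 207 and 111 to 122 CPM. Cd93 was not lower, at 57.5 to 72.3 and 57.9 to 85.7 CPM in transitional and 11.8 to 14.4 and 14.5 to 26.3 CPM in follicular libraries. Markers of other cells were not absent. In the transitional libraries 4 erythroid genes summed to 1277 to 2191 CPM in WT and 2460.1 to 5293 CPM in Sh3gl1-/- cells, 7 neutrophil and monocyte genes to 324 to 388 and 291 to 716 CPM, 7 T cell genes to 53.2 to 90 and 90.5 to 147 CPM, 4 NK cell genes to 15.6 to 37.2 and 26.6 to 40.7 CPM, and 3 plasma cell genes to 409 to 652 and 1067 to 4523 CPM. Marginal zone genes (4) summed to 328 to 353 and 195 to 238 CPM there, and germinal centre genes (3) to 28.3 to 34.8 and 12.1 to 28.3 CPM. After CD40L culture no library exceeded 213 CPM for the erythroid, 116 CPM for the neutrophil and monocyte, or 29.7 CPM for the T cell list. In such bulk RNA, fewer cells of a type and less RNA per cell cannot be told apart.

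Before the values, the Bcl2a1 genes need their sequences, because a read from one copy can match another. Bcl2a1a, Bcl2a1b and Bcl2a1d lie on chromosome 9 and each has 516 coding bases before the stop codon. All 3 copies hold the same base at 97.7% of these positions, and the longest stretch with no difference, coding positions 95 to 311, runs for 217 bases. The window below covers coding positions 1 to 100, in exon 1, where 7 of the 12 differing positions fall, and it is shown because these few bases are what separates the copies. Capitals mark positions at which the 3 are not all alike, and positions are counted from the start codon in the GRCm38 sequence of GENCODE M21.
Bcl2a1a, chr9:88957051-88957150, + strand: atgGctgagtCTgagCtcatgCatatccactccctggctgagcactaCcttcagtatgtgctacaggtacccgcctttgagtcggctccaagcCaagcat
Bcl2a1b, chr9:89199360-89199459, + strand: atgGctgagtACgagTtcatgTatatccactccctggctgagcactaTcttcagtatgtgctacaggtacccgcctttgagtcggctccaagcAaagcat
Bcl2a1d, chr9:88731620-88731719, - strand: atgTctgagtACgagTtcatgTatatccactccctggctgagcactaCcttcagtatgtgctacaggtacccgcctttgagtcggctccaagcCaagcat

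Over the whole transcripts, 69% of the stretches of 50 bases in Bcl2a1a occur also in another copy, against 57.6% in Bcl2a1b and 79.5% in Bcl2a1d. At 100 bases these shares are 43.5%, 31.1% and 54.7%. RSEM divides such reads by estimation, so the split between copies is less certain than their sum, and the sum is given beside the copies below. A further copy, Bcl2a1c, is not on the list and shares 10.4% of its 50-base stretches. It had 0 to 13 counts in the untreated libraries and 71 to 144 after CD40L.

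Part of the promoter of each copy is also nearly the same. The stretches below end 45 bases before the first annotated start of Bcl2a1a and Bcl2a1b and 1 base before that of Bcl2a1d, and come from the RefSeq promoter table for GRCm38.p6. They are shown because these copies gave unlike counts in the results that follow. Over 123 bases Bcl2a1a and Bcl2a1b show 0 differences, and Bcl2a1d differs from Bcl2a1b by 0 mismatches and the lack of 6 bases in a repeat, which are in capitals in Bcl2a1b.
Bcl2a1a, chr9:88956733-88956855, + strand: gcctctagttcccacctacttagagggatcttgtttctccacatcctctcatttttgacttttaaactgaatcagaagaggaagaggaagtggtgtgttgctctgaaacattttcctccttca
Bcl2a1b, chr9:89199042-89199164, + strand: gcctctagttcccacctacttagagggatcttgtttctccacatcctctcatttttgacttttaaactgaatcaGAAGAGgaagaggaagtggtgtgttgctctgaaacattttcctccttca
Bcl2a1d, chr9:88731915-88732031, - strand: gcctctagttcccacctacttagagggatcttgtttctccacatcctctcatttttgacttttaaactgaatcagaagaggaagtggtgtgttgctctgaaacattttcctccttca

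Letter patterns for 3 factors were looked for, on both strands, in the RefSeq promoters of 9 of the listed genes, which have 14 promoters between them. The pattern TGANTCA is looser than the AP-1 consensus, which has G or C in the middle. It occurs as TGAATCA in the near-identical stretches of Bcl2a1a, Bcl2a1b and Bcl2a1d printed above, and as TGAGTCA in the promoter of Fas. The pattern is found in 7.81% of all 32851 promoters. The NF-κB consensus occurs in 2 of the 14, as GGGGGTCTCC for Bcl2l1 at chr2:152830950-152830959 and as GGGAAACCCC, with overlapping matches on the other strand, for Bbc3 at chr7:16309446-16309455, and in 8.46% of all promoters. The FOXO motif GTAAACA occurs for Bcl2l11 at chr2:128125811-128125817 and for Bbc3 at chr7:16310094-16310100, and in 3.65% of all promoters. A match is a description of letters in a window and not of binding.

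Levels differed widely between the listed genes, and their order changed with the state of the cell. TPM, the share of all transcripts that a gene makes up, which is scaled to transcript length, was used to compare genes with each other. In WT transitional cells Mcl1 led with 167 ± 7.36 TPM (SD, n = 3), followed by Bcl2a1b with 84.7 ± 15.3, Bcl2a1d with 32 ± 6.74, Bcl2 with 29.4 ± 1.29 and Fas with 12.1 ± 1.6 TPM. Pmaip1, Bcl2l11, Bcl2a1a and Bcl2l1 lay between 7.98 and 3.96 TPM with overlapping neighbours, and Bbc3 was last at 0.107 ± 0.0503 TPM. Bcl2a1d and Bcl2 overlapped with each other too.

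In WT follicular cells Bcl2a1b, at 141 ± 7.9 TPM, and Mcl1, at 139.7 ± 14.4 TPM, overlapped at the top, and Bcl2a1d (53.1 ± 0.885 TPM) and Bcl2 (48 ± 4.02 TPM) overlapped below them. After CD40L the order in WT cells was Bcl2a1b at 1096 ± 122 TPM, Bcl2a1d at 779 ± 127, Fas at 221 ± 21.3, Mcl1 at 84.2 ± 15.6, Bcl2l1 at 48.7 ± 24.4 and Bcl2 at 13.4 ± 2.41 TPM. Of these neighbours, Mcl1 and Bcl2l1 overlapped, as did Bcl2 and the next gene, Pmaip1. In Sh3gl1-/- follicular and CD40L-treated cells the first 4 genes by TPM stood in the same order as in WT cells of that state. In the CD40L-treated Sh3gl1-/- cells Mcl1 (82.8 ± 11.1 TPM) and Bcl2l1 (45.7 ± 19.8 TPM) did not overlap. In Sh3gl1-/- transitional cells Bcl2 stood above Bcl2a1d, with overlapping libraries.

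The make-up of the survival transcripts moved from Mcl1 to the A1 genes. Of the TPM summed over the 6 survival genes, Mcl1 made up 52.1% ± 3.03 (SD, n = 3) in WT transitional, 36.1% ± 2.02 in WT follicular and 4.23% ± 1.03 in WT CD40L-treated cells. The 3 Bcl2a1 copies together made up 37.4% ± 4.05, 50.7% ± 1.85 and 92.7% ± 0.474 in the same groups. In Sh3gl1-/- cells the shares of the copies were 34.6% ± 3.85, 50.8% ± 2.39 and 90.8% ± 0.748.

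The sum over the 6 survival genes itself was 386 ± 22.6 TPM in WT follicular and 2024 ± 256 TPM in WT CD40L-treated cells, and 336 ± 19.1 and 1613 ± 158 TPM in Sh3gl1-/- cells. Bcl2, Bcl2l1 and Mcl1 without the A1 genes summed to 191 ± 17.3 and 146 ± 9.91 TPM in WT cells. The 3 BH3-only genes on the list summed to far less, 19.3 ± 5.3 TPM in WT follicular and 13.4 ± 4.22 TPM in WT CD40L-treated cells. Other BH3-only genes, among them Bid, which rose with CD40L as described below, are not in this sum. The larger sum after CD40L came with a larger A1 share in every library, as the plot of shares by library shows.

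**Figure D1:**
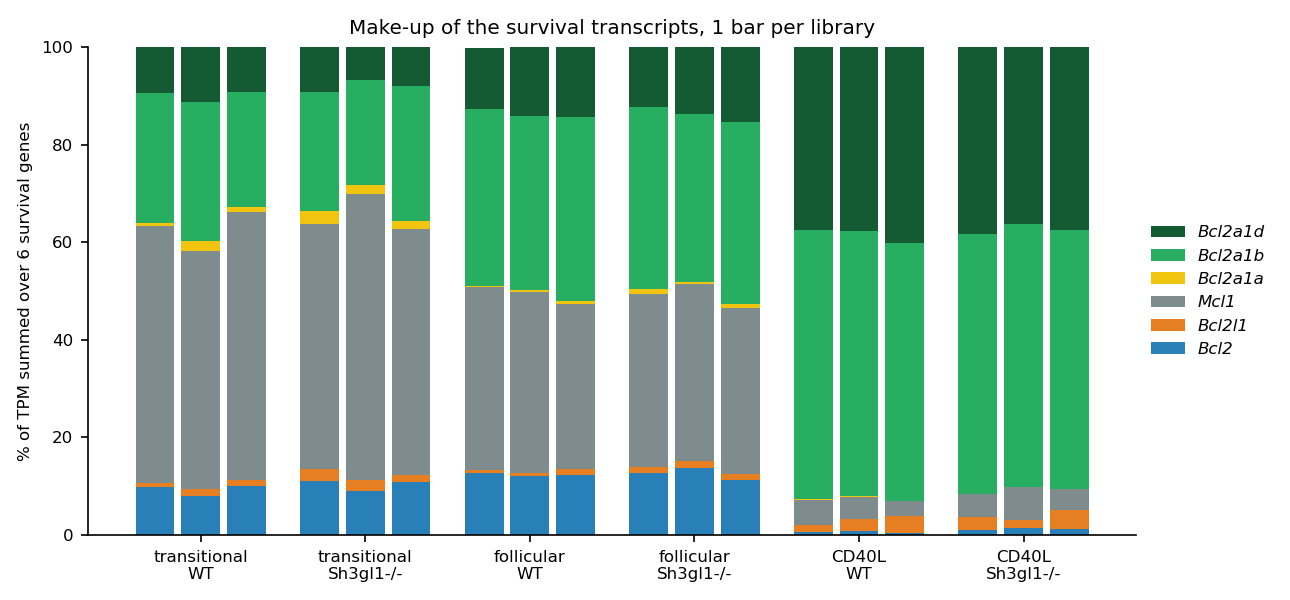
Share of each survival gene in the TPM summed over the 6 survival genes (vertical axis, percent), with 1 bar for each of the 18 libraries in their 6 groups. Grey Mcl1 covers 52.1% on average in WT transitional and 4.23% in WT CD40L-treated libraries, where the green Bcl2a1b and Bcl2a1d segments fill most of each bar.

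The largest changes in these genes came with CD40L culture. Comparing CD40L-treated with untreated follicular cells by edgeR's quasi-likelihood test, 8 of the 10 genes passed an adjusted p of 0.05 in WT cells, with 5 higher and 3 lower. In the same fit 49.3% of all 14460 genes tested passed, 23.6% higher and 25.7% lower, or 3414 and 3712 genes, against 2504 and 4602 with limma on log2(TPM + 1). In Sh3gl1-/- cells the count was again 8 of 10, with 5 higher and 3 lower, against 42.4% of all genes, 20.6% higher and 21.8% lower. The median log2 fold change of the 10 genes was 1.53 in WT and 1.3 in Sh3gl1-/- cells, and that of all genes tested was -0.08 and -0.03. Libraries of the groups did not overlap for 9 of the 10 genes in WT cells (56.5% of all genes) and for 8 of 10 in Sh3gl1-/- cells (53.2%). With 3 libraries against 3, the two-sided exact permutation test cannot go below p = 0.1, and it gave that value for each of these genes. The untreated follicular libraries are shared with the comparison to transitional cells described further on.

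**Figure D2:**
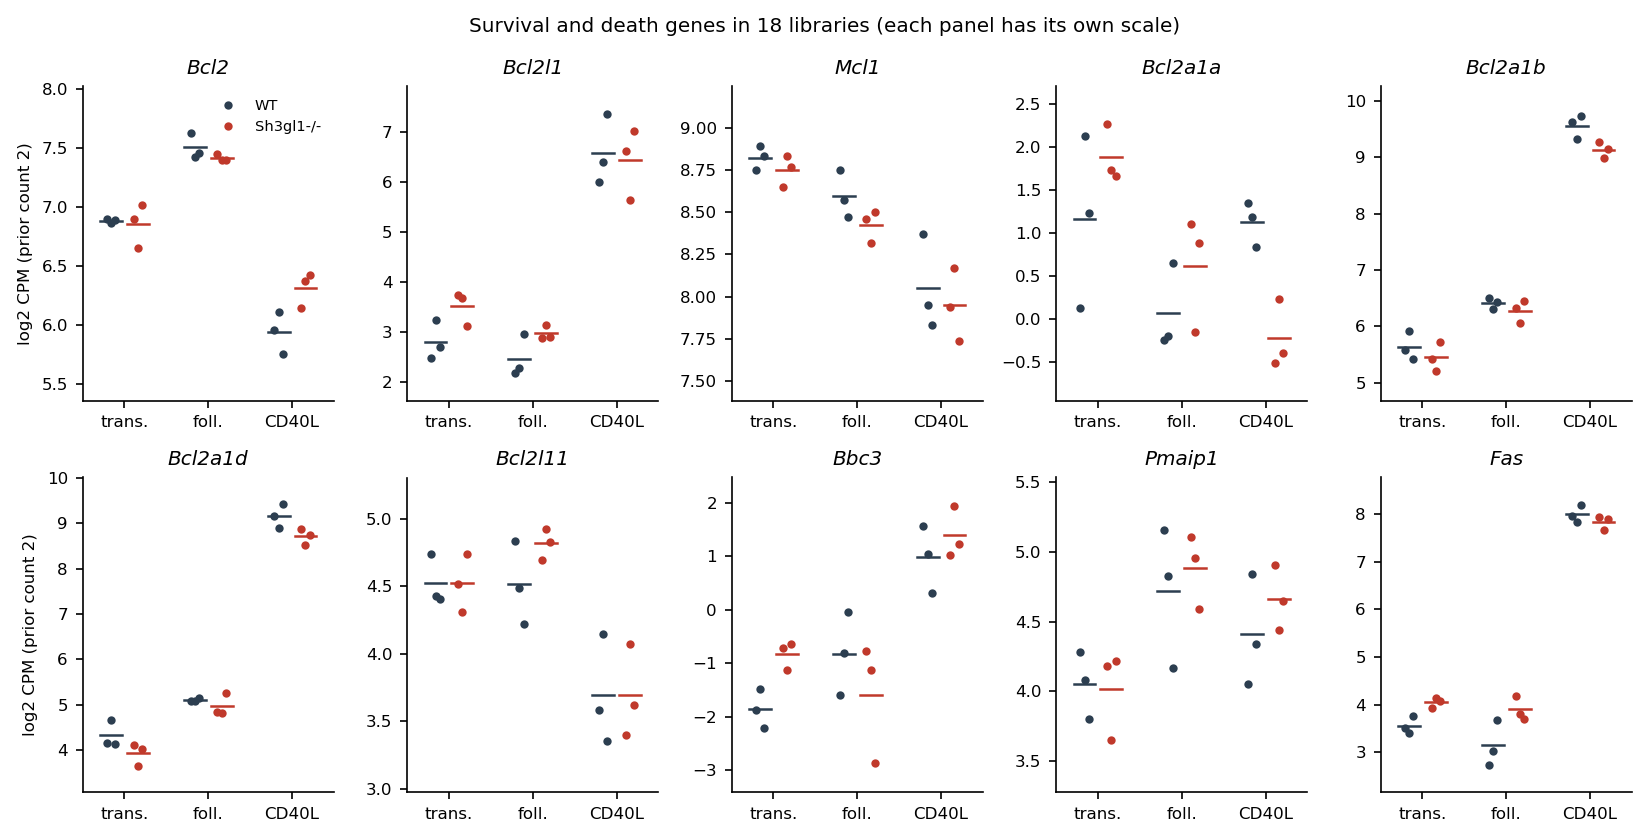
Level of each of the 10 genes as log2 CPM with a prior count of 2 (vertical axis, a separate scale in each panel) in transitional, follicular and CD40L-treated cells (horizontal axis), with 1 point per library, a bar at the mean, WT dark and Sh3gl1-/- red. Fas, Bcl2l1, Bcl2a1b and Bcl2a1d rise steeply with CD40L, and Bcl2, Mcl1 and Bcl2l11 are lowest there.

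Among the survival genes, the A1 copies Bcl2a1b and Bcl2a1d rose in both genotypes. Bcl2a1b stood at 90.7, 79.4 and 86 CPM in the 3 untreated WT follicular libraries and at 788, 645 and 852 CPM after CD40L, and at 80.4, 66.4 and 86.8 and then 617, 509 and 569 CPM in Sh3gl1-/- cells. Its log2 fold change was 3.13 (SE 0.14, adjusted p = 1.5e-09) in WT and 2.84 (SE 0.13, adjusted p = 3e-09) in Sh3gl1-/- cells. Every treated library was several times above every untreated one.

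Bcl2a1d went from 33.7, 33.5 and 35.3 to 569, 473 and 687 CPM in WT cells and from 28.4, 28.2 and 37.9 to 471, 366 and 426 CPM in Sh3gl1-/- cells. These are fitted rises of 16.5-fold (adjusted p = 9.6e-10) and 13.2-fold (adjusted p = 1.9e-09). The TPM of Bcl2a1d relative to that of Bcl2a1b was 0.377 ± 0.0247 before and 0.709 ± 0.0425 after CD40L in WT cells (SD, n = 3), and 0.381 ± 0.0423 and 0.699 ± 0.0224 in Sh3gl1-/- cells, with no overlap between untreated and treated libraries.

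Bcl2a1a did not follow its copies. It had 11, 12 and 19 counts in untreated and 35, 32 and 27 in CD40L-treated WT libraries, and 27, 12 and 24 and then 8, 13 and 10 counts in Sh3gl1-/- libraries. The log2 fold changes of 1.08 (SE 0.49, adjusted p = 0.082) and -1.03 (SE 0.51, adjusted p = 0.12) did not pass the test. Without WT untreated library 3 the WT change passed (1.47, adjusted p = 0.049). The promoter stretch printed above, chosen in part for likeness, is the same in Bcl2a1a and Bcl2a1b. Its part in these counts was not tested. With the counts of the 3 copies added, the rise was 10.9-fold in WT (adjusted p = 8.7e-10) and 8.78-fold in Sh3gl1-/- cells (adjusted p = 2e-09).

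Bcl2l1, which encodes BCL-XL, rose from one of the lowest levels on the list. It was at 4.41, 4.7 and 7.6 CPM in untreated and 63.5, 84.5 and 163 CPM in CD40L-treated WT libraries, and at 7.21, 8.61 and 7.3 and then 98.1, 49.8 and 129.8 CPM in Sh3gl1-/- libraries. These are fitted changes of 4.20 (SE 0.40) on the log2 scale in WT and 3.57 (SE 0.39) in Sh3gl1-/- cells, with adjusted p = 1.6e-06 and 6.9e-06. The treated libraries of each genotype were spread widely, but the lowest of them was far above the highest untreated one.

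The survival genes Bcl2 and Mcl1 fell. Bcl2 was at 198, 171 and 176 CPM in untreated WT libraries and at 62.1, 69.1 and 53.6 CPM after CD40L, and at 174, 169 and 169 and then 70.6, 82.3 and 85.5 CPM in Sh3gl1-/- cells. It fell by 1.59 on the log2 scale in WT (SE 0.12, adjusted p = 1.7e-07) and by 1.12 in Sh3gl1-/- cells (SE 0.12, adjusted p = 4.8e-06). Mcl1 changed less, from 431, 379 and 354 to 331, 247 and 228 CPM in WT and from 351, 320.3 and 363 to 245, 289 and 214 CPM in Sh3gl1-/- cells, a fall of 0.56 (SE 0.15, adjusted p = 0.0059) and 0.48 (SE 0.15, adjusted p = 0.016). Untreated and treated libraries of 1 genotype did not overlap for either gene. The Sh3gl1-/- call of Mcl1 was lost without Sh3gl1-/- treated library 1 or 3 or untreated library 3, with values from -0.595 to -0.35 over the single libraries left out.

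The 3 BH3-only genes went separate ways. Bcl2l11, which encodes BIM, was at 28.5, 22.4 and 18.4 CPM in untreated and 11.8, 17.7 and 10 CPM in treated WT libraries, and at 25.9, 30.4 and 28.3 and then 10.5, 16.6 and 12.2 CPM in Sh3gl1-/- libraries. It fell by 0.84 on the log2 scale (SE 0.23, adjusted p = 0.0085) and by 1.13 (SE 0.23, adjusted p = 0.0015). In WT cells the highest treated library lay just under the lowest untreated one, and in Sh3gl1-/- cells the groups were further apart. The WT call was lost without WT untreated library 1, with values from -1.1 to -0.656 over the single libraries left out.

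Bbc3, which encodes PUMA, was close to the limit of detection in untreated cells. Its counts were 3, 7 and 11 in untreated and 41, 29 and 18 in treated WT libraries, and 6, 5 and 0 and then 27, 46 and 35 in Sh3gl1-/- libraries, where 3 counts amount to 0.163 to 0.242 CPM. The rise passed the test in both genotypes, by 1.98 on the log2 scale in WT (SE 0.70, adjusted p = 0.03) and 3.28 in Sh3gl1-/- cells (SE 0.76, adjusted p = 0.0032), and the WT call was lost under the replicate block (1.9, adjusted p = 0.055). The WT call was also lost without WT untreated library 1 or 2 or treated library 1 or 2, with log2 fold changes between 1.61 and 2.57 over the single libraries left out.

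Pmaip1, the NOXA gene, was at 35.7, 28.2 and 17.9 CPM in untreated and 16.4, 28.5 and 20.1 CPM in treated WT libraries, and at 34.4, 31.1 and 23.9 and then 29.9, 21.5 and 25 CPM in Sh3gl1-/- libraries. Its log2 fold changes of -0.36 (SE 0.25, adjusted p = 0.25) and -0.24 (SE 0.25, adjusted p = 0.46) did not pass, and the groups overlapped in both genotypes.

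Fas, the death receptor gene, showed the largest fold change on the list in both genotypes. It was at 6.48, 8.03 and 12.7 CPM in untreated and 248, 229.6 and 292 CPM in treated WT libraries, and at 18.1, 13.9 and 12.9 and then 243, 203 and 236 CPM in Sh3gl1-/- libraries. The rise was 27.8-fold in WT (4.80 on the log2 scale, SE 0.23, adjusted p = 2.7e-09) and 15-fold in Sh3gl1-/- cells (3.91, SE 0.22, adjusted p = 1.3e-08). The treated libraries of the 2 genotypes overlapped, and the untreated ones did not.

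**Figure D3:**
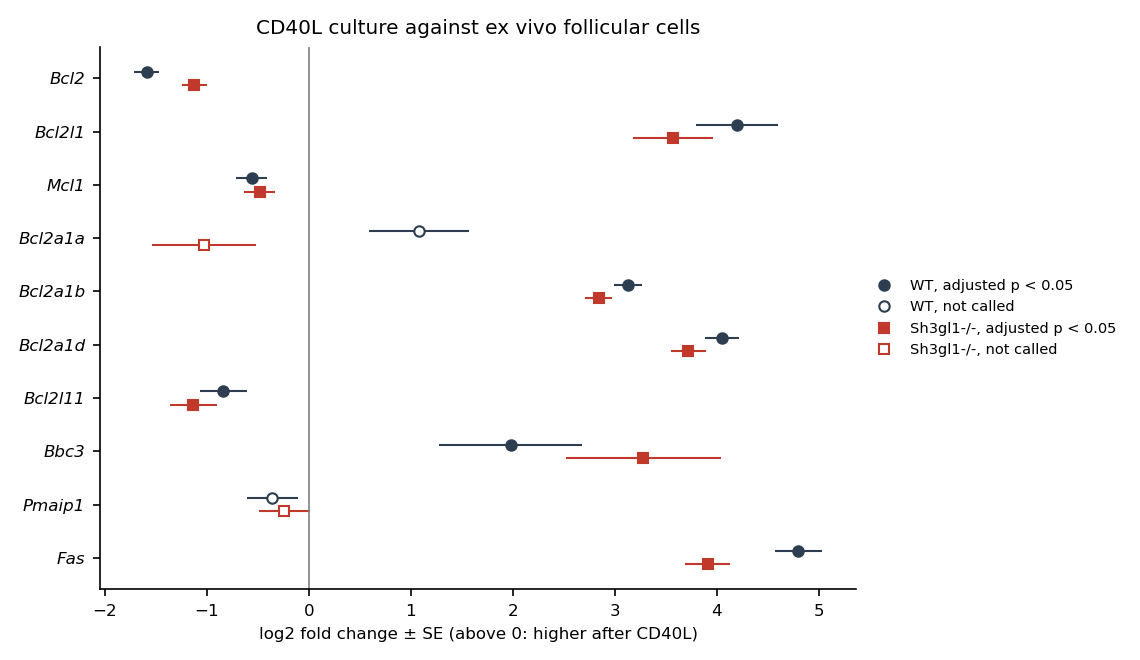
Fitted log2 fold change of CD40L-treated against untreated follicular cells for each gene (vertical axis, 10 genes and horizontal axis, log2 units, bars give 1 SE), with WT as circles and Sh3gl1-/- as squares and filled symbols for an adjusted p under 0.05. Fas reaches 4.80 and 3.91, Bcl2 -1.59 and -1.12, and Bcl2a1a lies on opposite sides of 0 with open symbols.

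The rest of the pathway gave a mixed picture after CD40L. Of 6 other multidomain family members tested from a list of 8, 2 rose in WT cells, Bax at 0.66 on the log2 scale (SE 0.15, adjusted p = 0.0021) and Bcl2l12 at 0.35 (SE 0.11, adjusted p = 0.014), and none fell. In Sh3gl1-/- cells Bax (0.64, adjusted p = 0.0035) and Bcl2l13 (0.48, adjusted p = 0.022) rose and Bcl2l14 fell (-1.63, adjusted p = 0.035). BAX forms the mitochondrial pore that the survival proteins hold back. Of 7 other BH3-only genes 5 were tested, and in WT cells 2 rose and 3 fell, with 1 and 2 in Sh3gl1-/- cells. Bid, whose product carries the caspase-8 signal to mitochondria, rose by 2.76 in WT (adjusted p = 5.7e-09) and 2.30 in Sh3gl1-/- cells (adjusted p = 3e-08), from 127 ± 7.28 to 877 ± 150.1 CPM and from 122 ± 5.61 to 609 ± 105 CPM. Bmf and Bnip3l fell in both genotypes, Bmf by 2.08 (adjusted p = 2.1e-05) and 1.47 (adjusted p = 0.00043).

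Among 12 genes of Fas and death receptor signalling, 2 rose and 2 fell in WT and 2 rose and 3 fell in Sh3gl1-/- cells. Cflar, the inhibitor of caspase-8, rose by 1.06 in WT (adjusted p = 4.7e-06) and 1.01 in Sh3gl1-/- cells (adjusted p = 9.3e-06), and Casp8 fell by 0.50 (adjusted p = 0.00082) and 0.39 (adjusted p = 0.0057). Fasl, the Fas ligand gene of T and NK cells, fell in both genotypes, by 3.24 in Sh3gl1-/- cells (adjusted p = 0.0067), and averaged at most 2.05 CPM in these groups. The T cell markers fell with it, from 86.8 to 118 CPM in untreated to 16.1 to 17.1 CPM in treated WT libraries and from 166 to 227 to 25.3 to 29.7 CPM in Sh3gl1-/- libraries, and their part in the change of Fasl was not tested.

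Of 12 caspases and caspase regulators, 6 rose and 3 fell in WT cells and 2 rose and 2 fell in Sh3gl1-/- cells. Htra2 rose by 1.38 (adjusted p = 8.9e-06) and 1.54 (adjusted p = 4.5e-06), and the cytochrome c gene Cycs rose in both genotypes, by 1.07 in WT cells (adjusted p = 9.9e-06), while Casp6 fell by 0.82 (adjusted p = 3.4e-05) and 0.54 (adjusted p = 0.0013).

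Of 10 genes for p53 and its targets 9 were tested, of which 4 rose and 2 fell in WT and 5 rose and 2 fell in Sh3gl1-/- cells. Trp53 itself rose in both genotypes, by 1.01 in WT cells (adjusted p = 2.4e-06), and Trp53inp1 fell by 2.07 (adjusted p = 1.2e-07) and 1.66 (adjusted p = 9.7e-07). Of 8 genes listed for NF-κB signalling and its targets, 6 rose in each genotype, while 2 fell in WT and 1 in Sh3gl1-/- cells. Traf1, which binds the CD40 tail, rose by 3.89 (adjusted p = 1.5e-09) and 3.56 (adjusted p = 3e-09), between the changes of Bcl2a1b and Fas. Map3k14 fell in both genotypes and Rel in WT cells.

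Whether the response to CD40L differed between the genotypes was tested as a difference of the 2 responses. Of 14460 genes 0 passed the adjusted threshold in edgeR (0%), 1278 (8.84%) had an unadjusted p under 0.05, and DESeq2 called 12 of the 2834 to which it gave an adjusted p. None of the 10 genes passed, and 3 had an unadjusted p under 0.05. For Fas the response was lower in Sh3gl1-/- cells by 0.89 on the log2 scale (difference -0.89, SE 0.28, adjusted p = 0.47), for Bcl2a1a the difference was -2.11 (SE 0.70, adjusted p = 0.47), and for Bcl2 it was 0.47 (SE 0.16, adjusted p = 0.48). For Fas all 3 untreated Sh3gl1-/- libraries were above all 3 untreated WT libraries, while the treated ones overlapped, and the Bcl2a1a libraries held 8 to 35 counts. Fitting all genes with at least 1 count brought Fas to an adjusted p of 0.0038 with a difference of -0.876, and the same fit called 210 genes.

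Follicular cells differed from transitional cells mostly in Bcl2, in A1 and in Pmaip1. Of the 9 genes tested (Bbc3 was too low), 4 passed in WT cells, all higher in follicular cells, where 25.9% of 14580 genes passed, 11.7% higher and 14.2% lower. In Sh3gl1-/- cells 5 passed, 4 higher and 1 lower, against 10.4% of genes, 3.7% higher and 6.71% lower. Over all genes the median log2 fold change was 0.03 and 0.00, and over the tested members it was 0.01 and 0.29.

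Bcl2 stood at 119, 116 and 118 CPM in WT transitional libraries, below each of the follicular ones given above, and at 119.5, 101 and 130.1 CPM in Sh3gl1-/- transitional libraries. It was higher in follicular cells by 0.63 on the log2 scale in WT (SE 0.10, adjusted p = 0.00037) and by 0.54 in Sh3gl1-/- cells (SE 0.09, adjusted p = 0.0022). Bcl2a1b was at 47.4, 60.4 and 42.5 CPM in WT and 42.7, 36.5 and 52.4 CPM in Sh3gl1-/- transitional cells, a difference to follicular cells of 0.78 (SE 0.15, adjusted p = 0.0023) and 0.82 (SE 0.15, adjusted p = 0.003). Bcl2a1d changed alike, from 17.8, 25.1 and 17.5 CPM and 17.1, 12.4 and 16 CPM, by 0.77 (SE 0.17, adjusted p = 0.0045) and 1.05 (SE 0.17, adjusted p = 0.0012). For these 3 genes no transitional library reached the lowest follicular library of its genotype. Over the 9 tested members, groups did not overlap for 3 in WT cells, against 40.8% of all genes. In Sh3gl1-/- cells they did not overlap for 6, against 30.4%.

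Pmaip1 was at 19.3, 16.8 and 13.8 CPM in WT and 18, 12.4 and 18.5 CPM in Sh3gl1-/- transitional libraries. The follicular libraries were higher by 0.72 (SE 0.23, adjusted p = 0.036) and 0.86 (SE 0.23, adjusted p = 0.03), with 1 WT follicular library inside the transitional range. Both calls were lost on log2(TPM + 1) with limma, with adjusted p = 0.1 and 0.068, and the WT call also in the fit of all 18 libraries (adjusted p = 0.052). The WT call was lost without WT follicular library 1 or 2 or transitional library 2 or 3 (0.483 to 0.951 over the libraries left out), and the Sh3gl1-/- call without library 1 or 2 of either state (0.694 to 0.999). Mcl1 was lower in follicular cells by 0.34 in Sh3gl1-/- cells (SE 0.09, adjusted p = 0.022) and by 0.22 in WT cells, where it did not pass (adjusted p = 0.083) but did with DESeq2 (-0.234, adjusted p = 0.033), with limma, and without WT follicular library 1 (-0.296, adjusted p = 0.037). The Sh3gl1-/- call was lost in the fit of all 18 libraries (adjusted p = 0.15), and without Sh3gl1-/- follicular library 1 or 2 or transitional library 2 or 3 (-0.385 to -0.276).

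Bcl2a1a went the other way from its copies. Its counts were 14, 57 and 28 in WT and 80, 50 and 42 in Sh3gl1-/- transitional libraries, against 11 to 27 in follicular ones. The log2 fold changes of -1.36 (SE 0.55, adjusted p = 0.084) and -1.29 (SE 0.52, adjusted p = 0.15) did not pass. The WT difference passed with all genes of at least 1 count in the fit (-1.36, adjusted p = 0.044) and without WT transitional library 1 (-1.75, adjusted p = 0.027). The 7 neutrophil and monocyte markers summed to 324 to 388 CPM in WT transitional against 123 to 161 CPM in WT follicular cells, and to 291 to 716 against 174 to 603 CPM, with overlap, in Sh3gl1-/- cells. Lyz2 made up most of the WT sums, at 224 to 298 against 81.9 to 111 CPM. Csf1r was also higher in WT transitional libraries, at 46.2 to 72.3 against 5.49 to 8.1 CPM, as was Itgam, at 6.83 to 8.77 against 1.17 to 3.84 CPM. S100a8 was at 15 to 23.5 against 21.8 to 46.2 CPM, S100a9 and Mpo overlapped, and Ly6g had 0 to 4 counts in WT transitional libraries. Their part in the Bcl2a1a counts was not tested. Bcl2l1, Bcl2l11 and Fas did not pass in either genotype, with adjusted p between 0.19 and 0.97. Fas passed in WT cells without WT follicular library 3 (-0.675, adjusted p = 0.032).

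In the lists around these genes, WT follicular cells had 0 genes higher and 2 lower of 6 other multidomain members, 0 and 1 of 5 other BH3-only genes, 1 and 1 of 12 death receptor genes, 1 and 4 of 12 caspases and regulators, 0 and 2 of 9 p53 genes, and 1 and 0 of 8 NF-κB genes. In these cells Bad fell by 0.93 (adjusted p = 0.00022), Bcl2l12 and Bcl2l14 fell, the survivin gene Birc5 fell by 2.70 (adjusted p = 2.5e-05) with Apaf1, and Casp6 rose. Fcmr and Traf1 were higher in follicular cells, Traf1 by 1.28 (adjusted p = 0.00059), and Daxx, Trp53inp1 and Aen were lower. In Sh3gl1-/- cells the called genes were Traf1 and Casp6, which were higher, and Trp53inp1, which was lower. The change from transitional to follicular cells differed between genotypes for 10 of 14580 genes (0.0686%) and for 0 of the 9 tested members in edgeR. At an unadjusted p under 0.05 it differed for 13.7% of genes and 0 members.

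Loss of endophilin A2 left the listed genes without a call in any state. Comparing Sh3gl1-/- with WT cells, 0 of 9 members passed in transitional cells, where 3.73% of 13774 genes passed, 0 of 9 in follicular cells (0.845% of 13610) and 0 of 10 in CD40L-treated cells (0.0227% of 13188). DESeq2 called 0 of them as well. At an unadjusted p under 0.05 there were 2, 1 and 4 members, against 21.8%, 10.9% and 7.07% of all genes. Groups did not overlap for 2, 1 and 4 members, against 28%, 16% and 13.8% of all genes. In both counts the members after CD40L were Bcl2 and the 3 Bcl2a1 copies, which can share reads and are not separate findings.

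Fas was the gene with the lowest p in untreated cells. In transitional cells it was at 11.3, 10.4 and 13.3 CPM in WT and 15, 17.5 and 16.7 CPM in Sh3gl1-/- libraries, which is 0.49 higher on the log2 scale (SE 0.16, adjusted p = 0.11). In follicular cells, with the values given above, it was 0.72 (SE 0.25, adjusted p = 0.29), and after CD40L it was -0.14 (SE 0.13, adjusted p = 0.8). All 6 untreated Sh3gl1-/- libraries were above the WT libraries of their state, though the lowest follicular one, at 12.9 CPM, was next to the highest WT one at 12.7. With all genes of at least 1 count in the fit, the follicular difference passed (0.725, adjusted p = 0.03), in a fit that called 602 genes. T cells also express Fas, and the 7 T cell markers were higher in Sh3gl1-/- follicular libraries, at 166 to 227 CPM against 86.8 to 118 CPM. Their part in the Fas values was not tested.

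Bcl2l1 was at 5.4, 9.31 and 6.32 CPM in WT and 13.2, 12.6 and 8.48 CPM in Sh3gl1-/- transitional libraries, higher by 0.71 on the log2 scale with overlapping groups (SE 0.26, adjusted p = 0.15). Red cell precursors express this gene strongly, and the erythroid markers were higher in the same libraries, at 2460.1 to 5293 CPM against 1277 to 2191 CPM. Their part in the Bcl2l1 values was not tested. Bbc3, too low to be tested in untreated cells, had 2, 3 and 1 counts in WT and 8, 5 and 7 in Sh3gl1-/- transitional libraries.

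After CD40L, the A1 genes were lower and Bcl2 was higher in Sh3gl1-/- cells, in libraries that did not overlap but with differences that did not pass. Fitted on the log2 scale, Sh3gl1-/- cells differed by -0.40 for Bcl2a1b (SE 0.13, adjusted p = 0.62), -0.42 for Bcl2a1d (SE 0.15, adjusted p = 0.66), -1.45 for Bcl2a1a (SE 0.45, adjusted p = 0.56) and 0.40 for Bcl2 (SE 0.15, adjusted p = 0.66). For the 3 copies added it was -0.41 (SE 0.14, adjusted p = 0.63). The exact permutation test gave p = 0.1 for each of these 5 values, the smallest it can give. Mcl1, Bcl2l11 and Pmaip1 differed between genotypes by at most 0.29 on the log2 scale in any state, with an SE of up to 0.27.

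**Figure D4:**
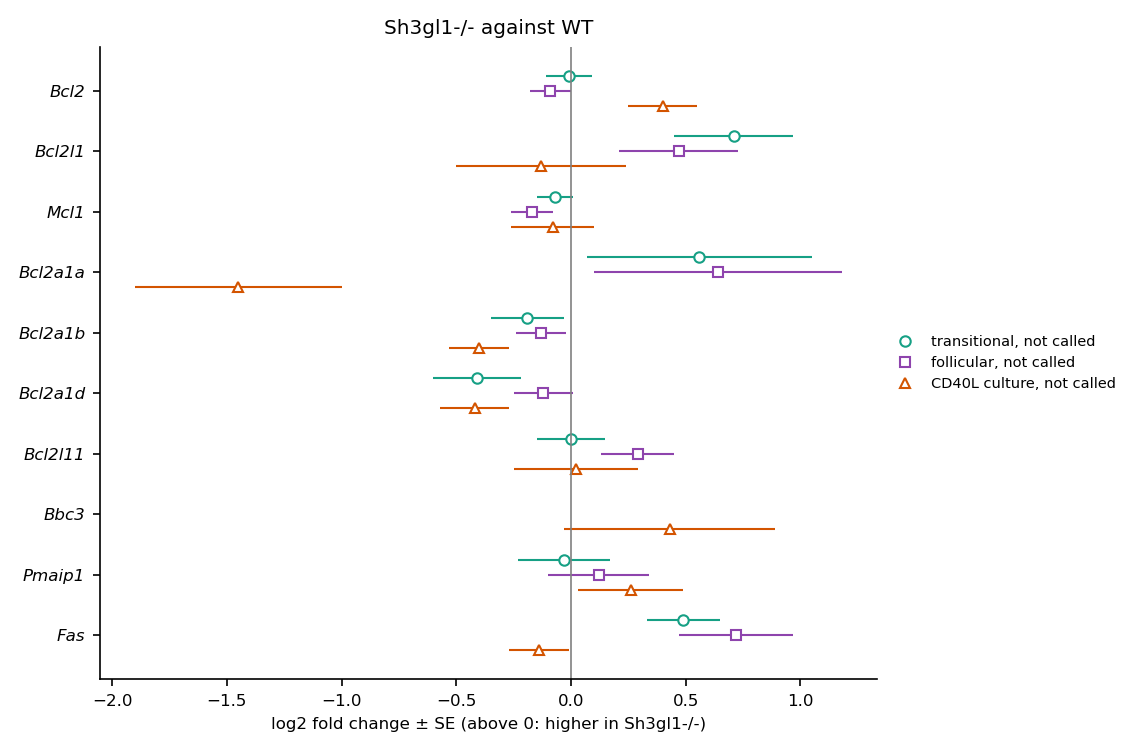
Fitted log2 fold change of Sh3gl1-/- against WT cells for each gene (vertical axis, 10 genes and horizontal axis, log2 units, bars give 1 SE) in transitional (circles), follicular (squares) and CD40L-treated cells (triangles). All symbols are open because no gene passed an adjusted p of 0.05, Fas lies at 0.49 and 0.72 in untreated cells, and Bbc3 was tested in CD40L-treated cells alone.

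In the surrounding lists the genotype comparison called genes in transitional cells alone. Bid was lower in Sh3gl1-/- cells by 0.43 (adjusted p = 0.033), Daxx by 0.39 (adjusted p = 0.044), Birc5 by 1.14 (adjusted p = 0.026) and Apaf1 by 0.63 (adjusted p = 0.031). No gene of the 6 lists passed in follicular or CD40L-treated cells. Whether these effects differed between states was tested within the untreated cells by the difference given above, and these 4 genes did not pass it.

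Over the 18 libraries, the protein-coding genes outside the list whose log2 CPM followed Fas most closely were Mrpl14 (Pearson r = 0.985), Akap2 (0.985) and Calr (0.983) of 11737 searched. For Bcl2 they were Faah (0.984), Hist1h4d (0.977) and Pou6f1 (0.977), and for Bcl2l11 Enpp1 (0.927), Scai (0.915) and Dgka (0.914). These libraries fall into treated and untreated groups, so such values describe a shared difference between those groups.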

How the data were processed

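The deposited table held expected counts, TPM and FPKM per gene for 18 libraries, in 54 columns, each matched to 1 library by its name. The expected counts, made by the authors with RSEM, are estimates without normalization. The deposited TPM and FPKM values are scaled by the authors to transcript length and library size. The submitters' processing notes name cutadapt 1.9.1, STAR 2.5.2a and RSEM 1.3.0 with GRCm38, and their label a stranded poly(A) kit. The study's methods instead name SMART-Seq HT and Nextera XT for the libraries, and TopHat and Cufflinks for the reads. Use of strand in counting is not stated. The lists and members were chosen with earlier results of these data known.

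Expected counts were rounded. Tests used edgeR 4.0.16 in R 4.3.3 (TMM, filterByExpr, glmQLFit and glmQLFTest), with Benjamini-Hochberg adjustment over all genes tested. Genotypes were compared within a state, and states in fits of 12 libraries. These main fits held no replicate term, so their tests were unpaired. The SE is the log2 fold change divided by the square root of F. DESeq2 1.42.0, limma 3.58.1, other filters, factors and blocks were alternatives. The edgeR and DESeq2 fits for the follicular genotype comparison and the difference in the CD40L response were run on simulated counts. These counts had the same spread for every gene, unlike real data, and the other fits were not checked in this way. Named genes were the members, called list genes, with values for up to 3 per list and comparison, and the 3 genes closest to Fas, Bcl2 and Bcl2l11 by r. Sequences came from RefSeq (GRCm38.p6) and GENCODE M21, with Biopython 1.88 for alignment. The labels do not say that the 3 libraries of a group came from separate mice. The study names 3 mice for its follicular and CD40L data, and for transitional cells p-values may measure technical spread alone. The 18 pairs of libraries of a group differed by 9.25 to 47.8 chi-square per degree of freedom, so none was a copy. Same-numbered libraries deviated together between transitional and follicular cells (r of 0.103 to 0.242 in WT, 0.115 to 0.263 in Sh3gl1-/-) and between untreated and treated WT cells (0.136 to 0.224), but not between untreated and treated Sh3gl1-/- cells (0.03 to 0.119) or between genotypes, so the number was taken to pair only the first 3 of these. Some genes of the lists are not reported here.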

Additional observations from a re-analysis of the deposited data

How the results depend on the processing

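Of the 782 member values under alternatives other than leaving out a library, 756 kept their direction and their side of the threshold, and of 852 with 1 library left out, 790 did. Counts of called members moved by over 1.5 times for Sh3gl1-/- against WT follicular cells (1 in place of 0) and for the difference in the CD40L response (1 in place of 0), both with all genes of at least 1 count in the fit, and leaving out a library gave 3 to 5 called members for follicular against transitional Sh3gl1-/- cells. The cause was not tested.

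Values near 0 turned sign. Bcl2l11 became 0.00671 for Sh3gl1-/- against WT transitional cells with genes of at least 10 counts, -0.00423 (DESeq2), -0.000478 (RLE factors) and -0.0115 (all 18 libraries) for CD40L-treated cells, and -0.00979 (DESeq2), -0.00804 (RLE), -0.111 and -0.128 (limma on TPM + 1 and + 0.1) for WT follicular against transitional cells. The Bcl2a1a difference between genotypes in that change became -0.193 and -0.201 (limma). The cause was not tested.

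Leaving out 1 library also turned values that had not passed the test. Between genotypes in transitional cells the ranges were -0.0967 to 0.0864 for Bcl2, -0.119 to 0.116 for Bcl2l11 and -0.148 to 0.137 for Pmaip1, in follicular cells -0.105 to 0.364 for Pmaip1, and in CD40L-treated cells -0.453 to 0.341 for Bcl2l1, -0.206 to 0.088 for Mcl1 and -0.198 to 0.288 for Bcl2l11. Bcl2l11 ran from -0.169 to 0.149 for WT follicular against transitional cells. The difference between genotypes in the CD40L response ran from -0.0418 to 0.273 for Mcl1 and -0.102 to 0.372 for Pmaip1, and that in the transitional to follicular change from -0.51 to 0.0315 for Bcl2l1, -0.577 to 0.459 for Bcl2a1a, -0.117 to 0.188 for Bcl2a1b and -0.0924 to 0.376 for Pmaip1.

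The replicate block removed the Bbc3 call in WT cells after CD40L (1.9, adjusted p = 0.055), as did a block nested within genotype, chosen after seeing the data (1.98, adjusted p = 0.061). The nested block also turned Bcl2l11 to -0.00141 and the Bcl2a1a difference to -0.125, and changed no other member call. Between genotypes the numbers share no deviation (mean r -0.022 to -0.015), and the block took the calls over all genes from 514 to 90 in transitional, 115 to 212 in follicular and 3 to 21 in CD40L-treated cells.

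Over all genes, calls between genotypes in transitional cells were 144 (all 18 libraries), 1426 (at least 1 count), 1245 (DESeq2), 182 and 167 (limma on TPM + 1 and + 0.1). In follicular cells they were 49, 602, 345, 64 and 41. In CD40L-treated cells they were 82, 216 and 75, and 2 and 1 with limma. The difference in the CD40L response gave 210 (at least 1 count) and 12 (DESeq2) in place of 0, and that in the transitional to follicular change, with 10 in edgeR, gave 0 (all 18 libraries and both limma fits), 462 (at least 1 count), 345 (DESeq2), 24 (at least 10 counts), 20 (block) and 99 (nested block). The limma fits moved the median of all genes after CD40L in WT cells from -0.08 to -0.18 and -0.247. Precision was limited by 3 libraries a group and, for Bcl2a1a and Bbc3, by counts under 100. Members that share reads cannot be separated further.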
